A study of Homo sapiens with 26 samples.

Results

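The genes described here are 10 that report on signalling through the kinase ERK: 6 that restrain it (DUSP6, DUSP4, SPRY2, SPRY4, SPRED1 and IL17RD), 2 transcription factors of the ETS family that follow it (ETV4 and ETV5) and 2 immediate-early genes (EGR1 and FOS). They were named by symbol, each had 1 row with exactly 1 symbol in the expression table, and they are 10 of 18417 genes measured there. The list was chosen by way of DUSP6, on its log2 difference from the controls after siRNA against DNMT1, DNMT3B or DNMT3L in earlier results from these arrays, so its values in those 3 groups are a description with no test. The values were log2 expression values from 26 Affymetrix Human Gene 1.0 ST arrays of NCCIT, an established human embryonal carcinoma line, which is a malignant counterpart of early embryonic cells.

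All cells had been transfected with siRNA, short double-stranded RNA that lowers the transcript it matches, and there were 13 groups with 2 arrays each. The groups siNTC-1 and siNTC-2 received control siRNA. Single siRNAs were aimed at a DNA methyltransferase in siDNMT1 (the maintenance enzyme), siDNMT3A and siDNMT3B (the de novo enzymes) and siDNMT3L (a cofactor of the de novo enzymes without catalytic activity). Combinations were siD1+3A (DNMT1 with DNMT3A), siD1+3B (DNMT1 with DNMT3B), siD1+3A+3B (those 3 together) and, without DNMT1 siRNA, 3A+3B and 3A+3B+3L as well as 3A+3L and 3B+3L, where the letters name the DNMT3 members targeted. No untransfected cells were analysed here, and the time between transfection and lysis is not given in the sources used here.

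ERK is the last kinase of the cascade that runs from receptor tyrosine kinases, such as FGF and EGF receptors, through RAS, RAF and MEK. Active ERK raises transcription of immediate-early genes such as FOS and EGR1 within minutes through serum response factor and its ETS-family partners, and of ETV4, ETV5, DUSP and SPRY genes more slowly; the products of the last 2 families then dampen the same cascade. In pluripotent human cells FGF signalling through ERK is part of the network that controls self-renewal and exit from it.

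The 250 bases upstream of 3 members are shown because they differ in matches to elements that such signals are known to act on. Sequence farther upstream was not searched, so an element missing from these bases may lie beyond them. EGR1 lies on chromosome 5 and the 250 bases before its start are chr5:138465229-138465478 on the plus strand. Those of FOS are chr14:75278578-75278827 on the plus strand, and those of DUSP6 are chr12:89352502-89352751 on the minus strand. All 3 are from RefSeq on GRCh38.p14, run 5′ to 3′ along the gene's strand, and carry in capitals each match to the motifs listed after them.
EGR1: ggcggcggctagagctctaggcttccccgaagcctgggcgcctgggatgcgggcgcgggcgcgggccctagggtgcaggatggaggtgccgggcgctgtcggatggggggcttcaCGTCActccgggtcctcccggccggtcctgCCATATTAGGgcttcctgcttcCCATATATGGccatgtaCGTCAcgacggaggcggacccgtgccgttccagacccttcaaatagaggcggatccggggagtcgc
FOS: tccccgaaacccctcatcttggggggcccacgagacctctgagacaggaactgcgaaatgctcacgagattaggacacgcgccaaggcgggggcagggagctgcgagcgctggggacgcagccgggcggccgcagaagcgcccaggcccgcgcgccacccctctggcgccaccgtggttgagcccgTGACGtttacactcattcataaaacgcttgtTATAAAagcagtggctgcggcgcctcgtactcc
DUSP6: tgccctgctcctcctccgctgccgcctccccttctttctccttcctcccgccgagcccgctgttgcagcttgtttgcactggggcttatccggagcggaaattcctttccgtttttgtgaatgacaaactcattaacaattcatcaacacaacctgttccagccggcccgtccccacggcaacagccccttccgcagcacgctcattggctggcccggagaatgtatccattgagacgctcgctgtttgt

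The motifs were searched on both strands in windows of 250 bases before to 50 bases after the start, for 35114 RefSeq promoters and 7 of the 10 members (not DUSP4, ETV4 or ETV5). They were the cAMP response element TGACGTCA (1.85% of all promoters had a match), its core TGACG (24.6%), the AP-1 site TGANTCA (7.71%), the ETS motif CCGGAA (17.2%), the EGR motif GCGTGGGCG (0.795%), the CArG box bound by serum response factor (1.29%) and the TATA sequence TATAAA (11.5%); the core is contained in the full cAMP response element. EGR1 held 2 CArG boxes, at -105 to -96 and -83 to -74 from the start, and 2 matches to the core at -135 to -131 and -66 to -62, read on the minus strand. FOS held the core at -64 to -60 and TATAAA at -33 to -28. None of the 7 motifs was found in the windows of DUSP6, SPRED1 or IL17RD, SPRY4 had 1 match to the core, and SPRY2 had 1 to the core and 1 to the ETS motif. SPRY2 and IL17RD have several listed starts, of which the first was used. CpG dinucleotides, the sites that DNA methyltransferases act on, numbered 33 in the window of EGR1, 32 in SPRED1, 30 in SPRY2, 30 in FOS, 26 in SPRY4, 19 in DUSP6 and 16 in IL17RD, against a median of 14 over all promoters. DNA methylation itself was not measured on these arrays.

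The 13 groups fell into 2 sets of arrays with large differences in expression: siNTC-1, siDNMT1, siDNMT3B and siDNMT3L (8 arrays) against siNTC-2 and the other 8 groups (18 arrays), with 49.5% of the variance on the first principal component, which separated them. No label names a batch, so the sets are inferred from expression, and each depletion was compared with the control of its own set. Duplicate arrays correlated at 0.9973 to 0.9989, but the labels do not say whether they came from separate cultures, so that p-values measure only the spread between these arrays, which may be technical. The targeted transcript passed the test as lower in 19 of 20 group and target pairs, at 37.4% to 99.4% of its control, the exception being DNMT3B in 3A+3B+3L at 99.4%. All 7 embryonal carcinoma markers with a row used here lay above the array median (6.28 to 6.33) in all 13 groups, with group means of 11.57 to 11.96 over the list. Endoderm (5 genes), mesoderm (5) and neural (3) markers all lay below it, as did 4 of 5 trophoblast markers, all but TFAP2C, and 4 of 5 fibroblast markers, all but THY1. Of the 5 fibroblast markers, THY1, a surface protein also present on pluripotent cells, was higher than siNTC-1 by 1.10, 1.62 and 0.99 (SE 0.072) in siDNMT1, siDNMT3B and siDNMT3L, the groups highest in DUSP6, while COL1A1, COL3A1 and DCN were not called there and LUM was called lower in siDNMT3B and siDNMT3L (-0.37 and -0.33). THY1 was also called higher than siNTC-2 in every depletion of the other set. Its differences there ran from 0.402 in 3A+3B and 0.495 in siDNMT3A to 1.19 in siD1+3B. The fibroblast list's mean ran from 5.79 to 6.11 over the 13 groups, and the list's part in the members' differences was not tested. In whole cultures such as these, fewer cells of a type and less RNA per cell cannot be told apart.

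DUSP6, the cytoplasmic phosphatase that inactivates ERK, was highest after each single depletion of the set with siNTC-1. Its log2 values were 7.55 and 7.78 in siDNMT1, 7.39 and 7.61 in siDNMT3B, and 7.40 and 7.37 in siDNMT3L, against 5.54 and 5.92 in siNTC-1. These 6 arrays lay above each of the other 20. The duplicates of siDNMT1 and siDNMT3B overlapped, as did those of siDNMT3B and siDNMT3L. In the other set, siNTC-2 read 5.42 and 5.62, siDNMT3A 5.30 and 5.61, and 3A+3B 5.60 and 5.20, and these groups overlapped one another. The combinations with DNMT3L or DNMT1 siRNA lay between: 5.89 and 6.04 in 3A+3L, 6.27 and 6.14 in 3B+3L, and 6.38 and 6.30 in 3A+3B+3L. With DNMT1 siRNA, the values were 6.08 and 5.82 in siD1+3A, 6.48 and 6.46 in siD1+3B, and 5.65 and 5.72 in siD1+3A+3B. Of the 12 neighbouring pairs in the order of the 13 group means, 7 overlapped. The range of group means was 2.27, larger than for 99.8% of all genes (the median gene spanned 0.408). The DUSP6 values lay below the array medians (6.28 to 6.33) in both controls, siDNMT3A and 3A+3B. They also did so in 3A+3L, 3B+3L, siD1+3A and siD1+3A+3B, so differences among these groups compare values below the median. No detection call is available to say how much of those values is background.

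**Figure D1:**
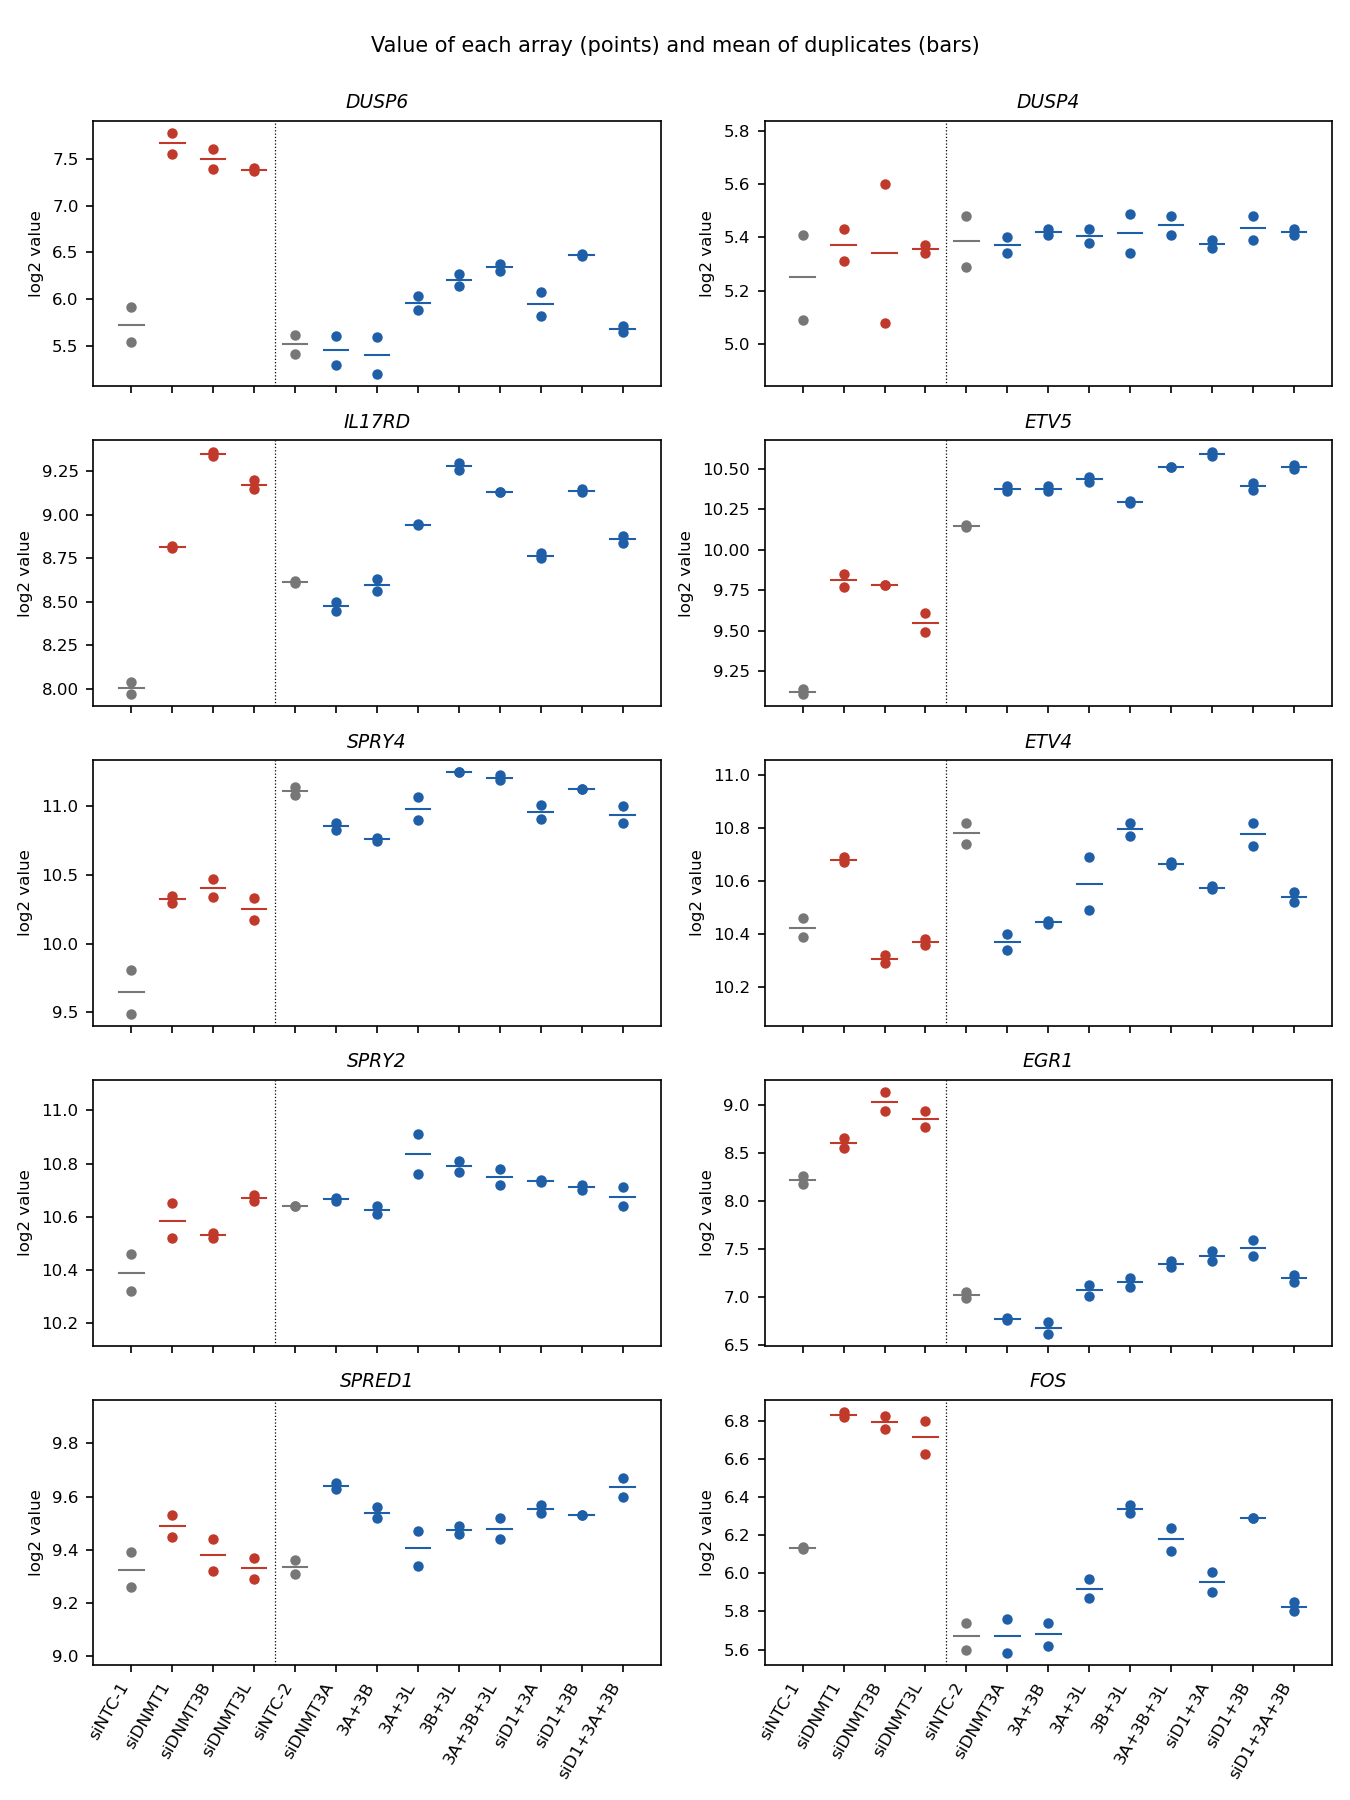
Log2 expression of each member (vertical axes, scaled per gene) on every array, with the 13 groups along the horizontal axis, points for the 2 arrays of a group and bars for their mean; controls are grey and the dotted line separates the array sets. DUSP6 is highest in siDNMT1, siDNMT3B and siDNMT3L (7.37 to 7.78), and DUSP4 stays between 5.08 and 5.60 in all groups.

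As differences from siNTC-1, DUSP6 was higher by 1.94 ± 0.14 (SE, 2 against 2 arrays) in siDNMT1, 1.77 ± 0.14 in siDNMT3B and 1.65 ± 0.14 in siDNMT3L, or 3.83, 3.41 and 3.15 times the control on the linear scale. The 3 values share the arrays of siNTC-1. Given against siNTC-2, they were 0.95 ± 0.14 in siD1+3B, 0.82 ± 0.14 in 3A+3B+3L, 0.69 ± 0.14 in 3B+3L, 0.45 ± 0.14 in 3A+3L, 0.43 ± 0.14 in siD1+3A, 0.17 ± 0.14 in siD1+3A+3B, -0.07 ± 0.14 in siDNMT3A and -0.12 ± 0.14 in 3A+3B. Every group with siRNA against DNMT1 or DNMT3L had a DUSP6 mean above that of its control. So did siDNMT3B, which received neither, while siDNMT3A and 3A+3B did not. With the other control group in its place, the sign of each difference was the same except in siD1+3A+3B. Of these calls, that in 3A+3L was lost without siNTC-2 replicate 1 (0.35) or 3A+3L replicate 1 (0.52) or 2 (0.37), that in siD1+3A without siNTC-2 replicate 1 (0.33) or siD1+3A replicate 1 (0.30), and that in 3B+3L without siNTC-2 replicate 1 (0.59) or 3B+3L replicate 1 (0.62).

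DUSP4, the nuclear phosphatase of the same family, gave 5.09 and 5.41 in siNTC-1 and 5.08 and 5.60 in siDNMT3B, the group with the widest gap between duplicates. Its group means spanned 0.198, all 12 neighbouring pairs of groups overlapped, and all of its values lay below the array medians. The differences from the controls ran from -0.02 to 0.12, each with an SE of 0.12. No detection call is given in the sources used here.

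The Sprouty proteins SPRY2 and SPRY4 act between the receptor and RAF. SPRY4 read 9.49 and 9.81 in siNTC-1, and 10.30 and 10.35 in siDNMT1, 10.34 and 10.47 in siDNMT3B, and 10.33 and 10.17 in siDNMT3L, with both arrays of each depletion above both controls. The differences were 0.67 ± 0.086, 0.75 ± 0.086 and 0.59 ± 0.086. In the other set SPRY4 was higher throughout, at 11.08 and 11.14 in siNTC-2, and lowest there in 3A+3B with 10.77 and 10.75, a difference of -0.35 ± 0.086 from the control, not called without siNTC-2 replicate 2 (-0.32) or 3A+3B replicate 1 (-0.36) or 2 (-0.34). SPRY4 thus depends on the control chosen: set against siNTC-2, the 3 single depletions would be lower by -0.78, -0.71 and -0.86.

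SPRY2 moved less, with group means from 10.39 in siNTC-1 to 10.84 in 3A+3L. It was higher than siNTC-1 (10.32 and 10.46) by 0.28 ± 0.058 in siDNMT3L and by 0.20 ± 0.058 in siDNMT1, the latter not called without siNTC-1 replicate 1 (0.125) or siDNMT1 replicate 1 (0.132). In siDNMT3B it differed by 0.14 ± 0.058 (adjusted p = 0.0924 in limma), which did not pass. SPRED1, a membrane-bound relative that blocks RAF activation, differed from siNTC-1 by at most 0.16 ± 0.059. Against siNTC-2 (9.31 and 9.36) it was higher by 0.30 ± 0.059 in siDNMT3A (9.65 and 9.63) and by 0.30 ± 0.059 in siD1+3A+3B (9.60 and 9.67), 2 groups in which DUSP6 was within 0.17 of its control.

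IL17RD, also known as Sef, is a transmembrane inhibitor of FGF signalling. Its duplicates lay close together, at most 0.0773 apart. It read 8.04 and 7.97 in siNTC-1, 9.36 and 9.34 in siDNMT3B, 9.20 and 9.15 in siDNMT3L, and 8.82 and 8.81 in siDNMT1, with no overlap between any of these 4 groups. The differences were 1.35 ± 0.044, 1.17 ± 0.044 and 0.81 ± 0.044, so IL17RD was highest in siDNMT3B, where DUSP6 was highest in siDNMT1. Against siNTC-2 (8.62 and 8.61), IL17RD was higher by 0.66 ± 0.044 in 3B+3L, 0.52 ± 0.044 in siD1+3B and 0.52 ± 0.044 in 3A+3B+3L. The lowest differences were -0.14 ± 0.044 in siDNMT3A, a call lost without any 1 of the 4 arrays, and -0.02 ± 0.044 in 3A+3B.

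ETV4 and ETV5, ETS-family factors of the PEA3 group, did not move together. ETV5 read 9.14 and 9.11 in siNTC-1 and was higher in siDNMT1 (9.77 and 9.85), siDNMT3B (9.78 and 9.78) and siDNMT3L (9.61 and 9.49), by 0.69 ± 0.047, 0.66 ± 0.047 and 0.42 ± 0.047. In the other set it read 10.15 and 10.14 in siNTC-2 and was called higher in 7 of 8 depletions, by up to 0.44 ± 0.047 in siD1+3A, all but 3B+3L at 0.15 ± 0.047 (adjusted p = 0.0535 in limma). Against siNTC-2 instead, the 3 single depletions of the first set would be lower by -0.33, -0.36 and -0.60. ETV4 was higher in siDNMT1 by 0.25 ± 0.059, a call lost without siNTC-1 replicate 2 (0.21), and differed by -0.12 ± 0.059 in siDNMT3B and -0.06 ± 0.059 in siDNMT3L. Its lowest group mean was in siDNMT3B (10.32 and 10.29). In siDNMT3A (10.40 and 10.34) it was -0.41 ± 0.059 from siNTC-2 (10.82 and 10.74).

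EGR1, a zinc finger factor of the immediate-early class, read 8.18 and 8.26 in siNTC-1, 8.56 and 8.66 in siDNMT1, 8.94 and 9.14 in siDNMT3B, and 8.94 and 8.77 in siDNMT3L. All 8 arrays of this set lay above all 18 of the other, where EGR1 read 6.99 and 7.05 in siNTC-2. Its differences from the control were 0.39 ± 0.080 in siDNMT1, 0.82 ± 0.080 in siDNMT3B and 0.63 ± 0.080 in siDNMT3L. In the other set they ran from 0.49 ± 0.080 in siD1+3B (7.43 and 7.60) to -0.34 ± 0.080 in 3A+3B (6.74 and 6.62), the last not called without siNTC-2 replicate 2 (-0.31) or 3A+3B replicate 2 (-0.28). Set against siNTC-1 instead, EGR1 would be lower in siD1+3B, by -0.70.

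FOS, a subunit of the AP-1 factor, read 6.14 and 6.13 in siNTC-1, 6.85 and 6.82 in siDNMT1, 6.76 and 6.83 in siDNMT3B, and 6.63 and 6.80 in siDNMT3L. These were differences of 0.70 ± 0.074, 0.66 ± 0.074 and 0.57 ± 0.074, and siDNMT3B overlapped both siDNMT1 and siDNMT3L, which did not overlap each other. Against siNTC-2 (5.60 and 5.74), FOS was higher by 0.67 ± 0.074 in 3B+3L (6.36 and 6.32), 0.61 ± 0.074 in siD1+3B (6.29 and 6.29) and 0.50 ± 0.074 in 3A+3B+3L (6.24 and 6.12). It was within 0.01 of the control in siDNMT3A and 3A+3B.

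**Figure D2:**
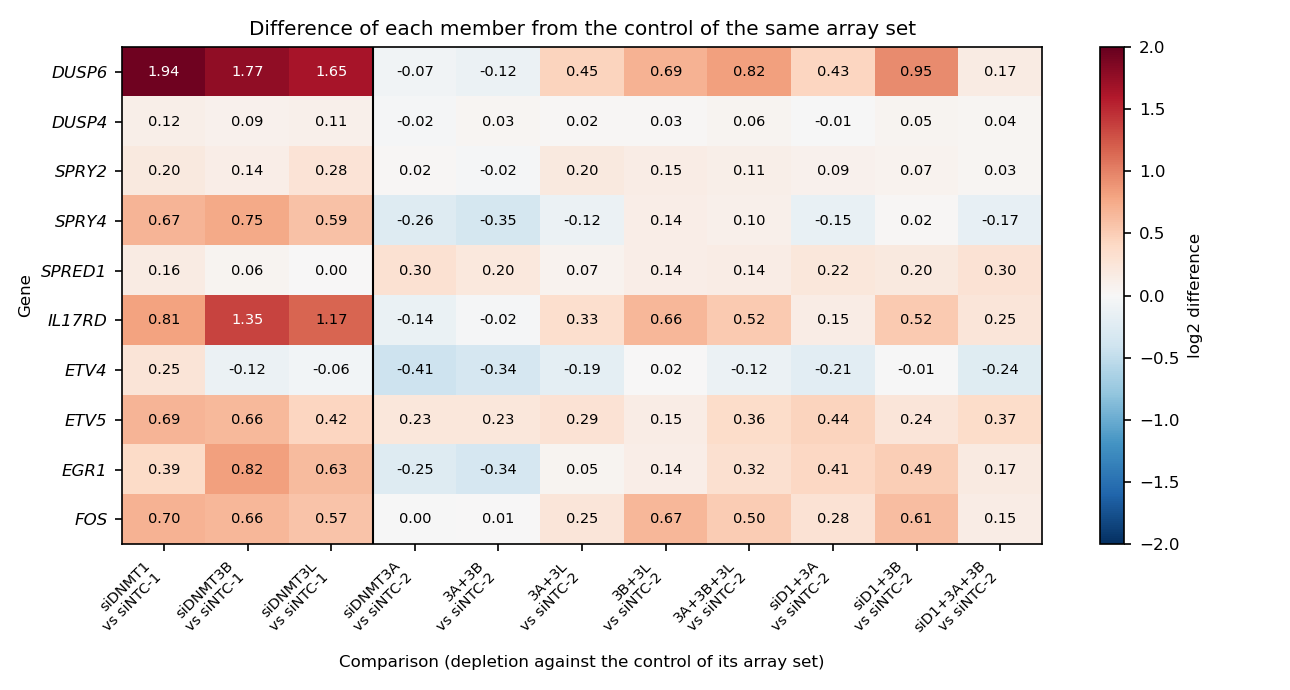
Difference of each member (rows) from the control of the same array set in the 11 depletions (columns), in log2 units, printed in each cell and coloured red for higher and blue for lower. DUSP6 and IL17RD carry the deepest red in siDNMT1, siDNMT3B and siDNMT3L (0.81 to 1.94), and the siDNMT3A and 3A+3B columns hold the most negative values, down to -0.41 for ETV4.

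Counted with limma at an adjusted p under 0.05 over all genes, 8 of 10 members were called in siDNMT1, all higher, where 19.8% of all genes were called and 9.26% were called higher. In siDNMT3B 6 were called, all higher (24.2% of genes, 11.8% higher), and in siDNMT3L 7, all higher (19.2%, 9.32% higher). Against siNTC-2, 5 members were called in siDNMT3A (15.8%), 5 in 3A+3B (12.6%), 6 in 3A+3L (22.4%), 3 in 3B+3L (10.1%), 5 in 3A+3B+3L (23.3%), 7 in siD1+3A (22.8%), 6 in siD1+3B (25% of genes) and 4 in siD1+3A+3B (18.6%). The members were chosen with results of these comparisons known, so the counts are descriptions beside those shares. The count in siDNMT3A was 3 without any single one of its arrays or of siNTC-2. Fitted on the arrays compared alone, it was 2 there, 5 in siDNMT1, 3 in 3A+3B and 3 in 3A+3L. That in 3A+3B was 2 without siNTC-2 replicate 2 or 3A+3B replicate 2 and 3 without 3A+3B replicate 1. In 3A+3L it was 2 without siNTC-2 replicate 1 and 3 without 3A+3L replicate 1. In siD1+3A it was 2 without siNTC-2 replicate 1, 4 without siD1+3A replicate 1 and 3 without siD1+3A replicate 2.

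The control groups themselves differed in these genes. siNTC-2 read higher than siNTC-1 by 1.46 ± 0.086 for SPRY4, 1.02 ± 0.047 for ETV5, 0.61 ± 0.044 for IL17RD, 0.35 ± 0.059 for ETV4 and 0.25 ± 0.058 for SPRY2. It read lower by -1.20 ± 0.080 for EGR1 and -0.46 ± 0.074 for FOS. The limma test called these 7 members, with adjusted p-values from 1.29e-11 (ETV5) to 0.00169 (SPRY2), where 44.7% of all genes were called. DUSP6 differed by -0.21 ± 0.14 (adjusted p = 0.245 in limma), DUSP4 by 0.14 ± 0.12 and SPRED1 by 0.01 ± 0.059. What separates the 2 sets is not labelled, so that set and control siRNA group cannot be told apart. Over the 13 group means, FOS followed DUSP6 with r = 0.933 after each set was centred and 0.967 without centring. SPRY4 went from 0.904 to -0.339 and ETV5 from 0.737 to -0.424, in descriptions over points that share array sets.

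Comparisons between depletions of the same set use no control array and ask what 1 further siRNA added. The transcripts of the other targets could shift too. DNMT3B was higher by 0.44 when DNMT3L siRNA was added to 3A+3B, and by 0.45 when DNMT3A siRNA was added to 3B+3L. DNMT1 stood at 50% of its control in siD1+3B and at 59.5% in siD1+3A+3B. The part of such shifts in the members' differences was not tested. The members were chosen with earlier results of these data known. Their calls and counts in the additions are thus descriptions beside the shares of all genes. With DNMT3L siRNA added to 3A+3B, DUSP6 rose by 0.94 ± 0.14 (adjusted p = 0.000246 in limma), from 5.60 and 5.20 to 6.38 and 6.30. EGR1 rose by 0.66 ± 0.080 (adjusted p = 3.19e-05 in limma), from 6.74 and 6.62 to 7.31 and 7.38. The feedback inhibitors IL17RD (0.54 ± 0.044) and SPRY4 (0.46 ± 0.086) rose too, as did FOS (0.50 ± 0.074). In all, 6 of 10 members were called, all higher, where 9.42% of all genes were called and 3.93% were called higher. The sixth, ETV4, rose by 0.22 ± 0.059 but was not called without either array of 3A+3B (0.22 and 0.23) or either of 3A+3B+3L (0.23 and 0.21).

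With DNMT3L siRNA added to siDNMT3A, IL17RD rose by 0.47 ± 0.044 (adjusted p = 2.97e-06 in limma), from 8.50 and 8.45 to 8.94 and 8.95. DUSP6 rose by 0.52 ± 0.14 (adjusted p = 0.026 in limma), from 5.30 and 5.61 to 5.89 and 6.04, but was not called without siDNMT3A replicate 1 (0.36), 3A+3L replicate 1 (0.59) or 3A+3L replicate 2 (0.44). In all 6 members were called (10.1% of genes), 5 higher and SPRED1 lower by -0.24 ± 0.059. Except for IL17RD, each of the 6 lost its call without 1 of the arrays: for EGR1 (0.30 ± 0.080) the values were 0.24 to 0.36 without either array of either group, for ETV4 (0.22 ± 0.059) 0.25 and 0.19 without siDNMT3A replicates 1 and 2 and 0.12 without 3A+3L replicate 2. For FOS (0.25 ± 0.074) they were 0.16 without siDNMT3A replicate 1 and 0.20 without 3A+3L replicate 1, and for SPRED1 -0.23 and -0.25 without siDNMT3A replicates 1 and 2 and -0.18 without 3A+3L replicate 1. Without siDNMT3A replicate 1 the count over both additions of DNMT3L siRNA fell from 12 to 7. Whether DNMT3L siRNA added more to 3A+3B than to siDNMT3A was tested after the values were seen: DUSP6 differed by 0.43 ± 0.20 (adjusted p = 0.475 in limma) and no member passed the test (5 at an unadjusted p under 0.05), where 0.0326% of genes did.

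Adding DNMT1 siRNA to siDNMT3A raised EGR1 by 0.66 ± 0.080 (adjusted p = 5.72e-05 in limma), from 6.78 and 6.76 to 7.38 and 7.48, and IL17RD by 0.29 ± 0.044, from 8.50 and 8.45 to 8.75 and 8.78. In all 6 members were called, all higher, where 9.62% of genes were called and 4.32% were called higher. DUSP6, at 0.50 ± 0.14, lost its call without siD1+3A replicate 1 (0.37) or siDNMT3A replicate 1 (0.34). ETV5 (0.21 ± 0.047) lost it without siD1+3A replicate 1 (0.22), siD1+3A replicate 2 (0.20) or siDNMT3A replicate 2 (0.19). FOS (0.29 ± 0.074) lost it without siD1+3A replicate 2 (0.23) or siDNMT3A replicate 1 (0.20), and ETV4 (0.20 ± 0.059) without any 1 of the 4 arrays (0.17 to 0.23). Added to 3A+3B, DNMT1 siRNA raised EGR1 by 0.51 ± 0.080 (adjusted p = 0.00124 in limma), from 6.74 and 6.62 to 7.23 and 7.16. IL17RD rose by 0.27 ± 0.044, a call lost without 3A+3B replicate 1 (0.23), and DUSP6 differed by 0.29 ± 0.14 (adjusted p = 0.316 in limma). These were the 2 members called there, against 3.19% of genes. Whether DNMT1 siRNA added more to 3A+3B than to siDNMT3A was likewise tested after the values were seen, and limma called 0 of 10 members (0 at an unadjusted p under 0.05), where 0.076% of genes were called. Over both additions of DNMT1 siRNA, the count of calls was 8; it was 5 without siD1+3A replicate 1, siD1+3A replicate 2 or siDNMT3A replicate 1, and 1 when only the arrays compared were fitted.

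**Figure D3:**
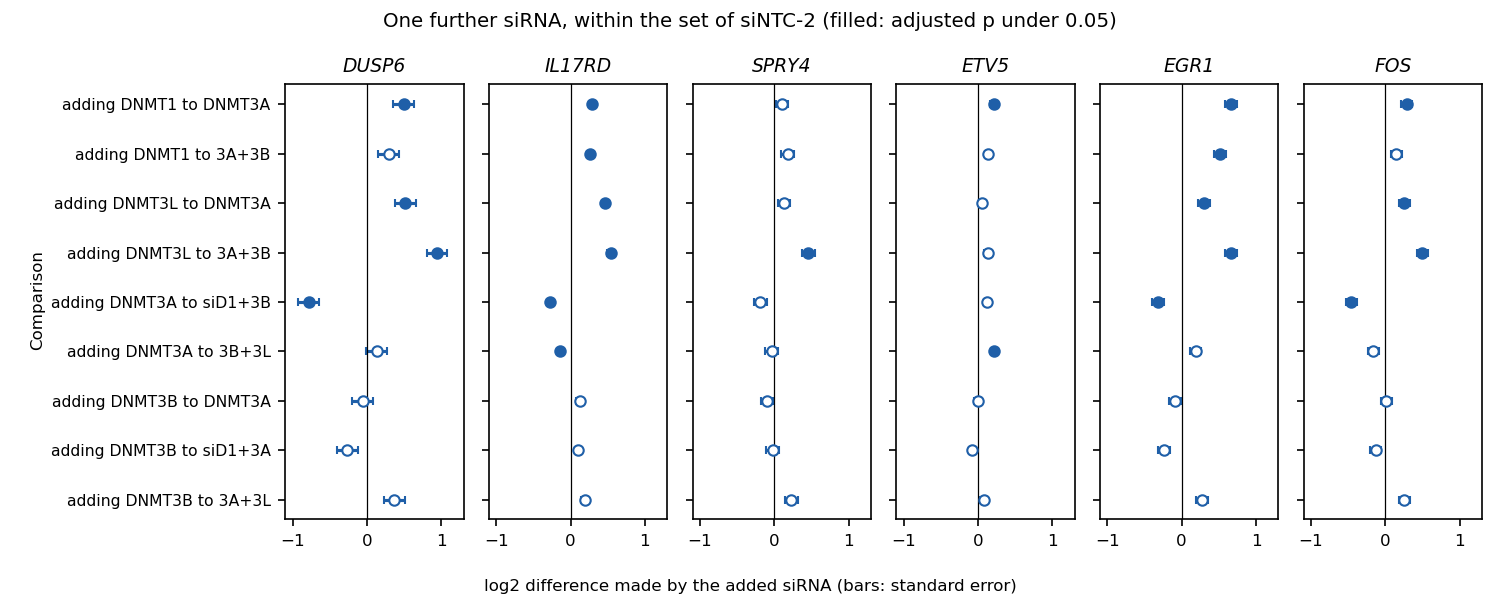
Change in 6 members (horizontal axis, log2 units, with the SE as a bar) when 1 more siRNA was added, with the 9 additions within the set of siNTC-2 as rows, 1 panel for each of 6 members and filled points where the adjusted p in limma was under 0.05. DUSP6 and EGR1 lie to the right when DNMT3L or DNMT1 siRNA was added and to the left when DNMT3A siRNA was added to siD1+3B (-0.78 and -0.32).

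DNMT3A siRNA went the other way on one background. Added to siD1+3B, it lowered FOS by -0.46 ± 0.074 (adjusted p = 0.00225 in limma), from 6.29 and 6.29 to 5.85 and 5.80, and IL17RD by -0.28 ± 0.044, from 9.13 and 9.15 to 8.84 and 8.88. DUSP6 was lower by -0.78 ± 0.14 (adjusted p = 0.00528 in limma), from 6.48 and 6.46 to 5.65 and 5.72, with no overlap. That call was lost, with little change in value, without siD1+3B replicate 1 (-0.78), siD1+3B replicate 2 (-0.79) or siD1+3A+3B replicate 1 (-0.75). EGR1 (-0.32 ± 0.080) and ETV4 (-0.23 ± 0.059) were also called, and lost the call without any 1 of the 4 arrays (-0.24 to -0.41 and -0.19 to -0.28). In all 5 members were called, all lower, where 3.02% of genes were called and 1.68% lower.

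Added to 3B+3L, the same siRNA gave 0.13 ± 0.14 for DUSP6 (6.27 and 6.14 to 6.38 and 6.30) and 0.19 ± 0.080 for EGR1. ETV5 rose by 0.22 ± 0.047 (adjusted p = 0.00258 in limma), and IL17RD fell by 0.14 on the log2 scale (± 0.044), a call lost without any 1 of the 4 arrays (-0.12 to -0.17). These 2 members were called there, against 18.9% of genes. The effect of DNMT3A siRNA on 3B+3L minus that on siD1+3B was 0.92 ± 0.20 for DUSP6 (adjusted p = 0.00417 in limma) and 0.51 ± 0.11 for EGR1 (adjusted p = 0.00494 in limma), in a test chosen after the values were seen. The other 8 members did not pass, and 14.8% of all genes did. Over both additions of DNMT3A siRNA, the 7 calls became 4 without siD1+3B replicate 1, siD1+3B replicate 2 or siD1+3A+3B replicate 1, and 2 when only the arrays compared were fitted.

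No member passed the test when DNMT3B siRNA was the one added. Added to siDNMT3A, siD1+3A or 3A+3L, it gave 0 of 10 members called by limma in each, with 1, 2 and 5 members at an unadjusted p under 0.05, where 0.0923%, 0.57% and 0.0977% of genes were called. The DUSP6 differences were -0.06 ± 0.14, -0.26 ± 0.14 and 0.37 ± 0.14. IL17RD, 0.19 ± 0.044 higher with 3A+3L, passed once the dimmest 40% of genes were left out (adjusted p = 0.0446 in limma). The DNMT3B transcript itself stood at 73.5% of its control in 3A+3B, 87.1% in siD1+3A+3B and 99.4% in 3A+3B+3L.

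Directly compared, the 3 single depletions of the first set did not differ detectably in DUSP6: siDNMT1 minus siDNMT3B was 0.17 ± 0.14, siDNMT1 minus siDNMT3L 0.28 ± 0.14 and siDNMT3B minus siDNMT3L 0.12 ± 0.14. IL17RD did differ, by -0.54 ± 0.044 (adjusted p = 2.81e-07 in limma) for siDNMT1 minus siDNMT3B and by -0.36 ± 0.044 for siDNMT1 minus siDNMT3L. EGR1 was lower in siDNMT1 than in siDNMT3B by -0.43 ± 0.080 (adjusted p = 0.00108 in limma). ETV4 was higher in siDNMT1 than in siDNMT3B and siDNMT3L, by 0.37 ± 0.059 and 0.31 ± 0.059, and ETV5 was higher in siDNMT1 than in siDNMT3L by 0.26 ± 0.047. The 3, 3 and 2 members called stood against 18.3%, 12.6% and 10.8% of genes. Between siDNMT3B and siDNMT3L the calls were IL17RD, higher in siDNMT3B by 0.18 ± 0.044, and ETV5, by 0.23 ± 0.047. IL17RD lost its call without either siDNMT3B array (0.17 and 0.19) or siDNMT3L replicate 2 (0.15), and ETV5 without siDNMT3L replicate 2 (0.17). Fitted on the arrays compared alone, the 8 calls of these pairs became 2.

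Genes of the integrated stress response, the programme led by the factor ATF4, also differed between these groups. The mean log2 level of 10 such genes was 7.98 and 8.03 on the arrays of siNTC-1, and its group mean was 9.81 in siNTC-2. In the first set it was 7.64 in siDNMT1, 7.85 in siDNMT3B and 7.91 in siDNMT3L, where 6, 4 and 4 of the 10 were called lower and 1 higher in each (median differences of -0.46, -0.14 and -0.21). In the second it was 9.76 in 3B+3L, 9.59 in 3A+3B, 9.46 in siDNMT3A, 9.05 in siD1+3A+3B, 8.64 in siD1+3A, 8.47 in 3A+3L, 8.35 in siD1+3B and 8.27 in 3A+3B+3L. The 3 groups of the second set that were highest in DUSP6 thus held the lowest levels of this list (siD1+3B and 3A+3B+3L) and one near that of the control (3B+3L).

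In the additions, 9 of the 10 stress genes were called lower when DNMT3L siRNA was added to 3A+3B (median -1.28) or to siDNMT3A (-0.999), 9 when DNMT1 siRNA was added to siDNMT3A (-0.90) and 8 when it was added to 3A+3B (-0.53). With DNMT3A siRNA, 9 were called higher on siD1+3B (median 0.64; 5 to 7 without 1 of the 4 arrays), where DUSP6, EGR1, FOS and IL17RD fell, and 9 lower on 3B+3L (-1.45), where DUSP6 differed by 0.13. In 3B+3L against siNTC-2 the list's median was -0.06, with ASNS alone called, higher by 0.37, while DUSP6 was 0.69 above the control. Between the controls 9 were higher in siNTC-2 (median 1.77), where DUSP6 differed by -0.21. The part of the stress genes in the members' differences was not tested.

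**Figure D4:**
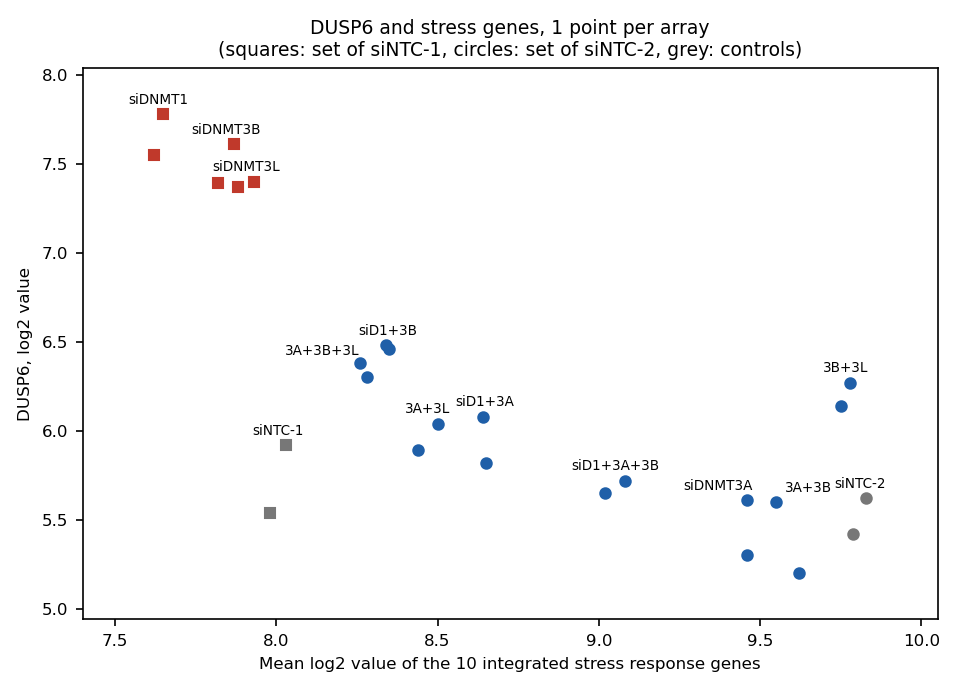
DUSP6 (vertical axis, log2) against the mean of the 10 integrated stress response genes (horizontal axis, log2) on the 26 arrays, with squares for the set of siNTC-1, circles for that of siNTC-2 and grey for the controls, and each group named. Arrays of siDNMT1, siDNMT3B and siDNMT3L lie at 7.37 to 7.78 for DUSP6 beside siNTC-1 at 5.54 and 5.92 where the stress means of those 8 arrays span 7.62 to 8.03, lowest in siDNMT1, and 3B+3L lies above siNTC-2 at nearly the same stress mean.

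Other genes of the pathway were counted list by list. The counts stand beside 19.8% of all genes called in siDNMT1 (9.26% higher), 24.2% in siDNMT3B (11.8%) and 19.2% in siDNMT3L (9.32%). The list of further feedback inhibitors had 11 genes with a row used here, among them FLRT3, a partner of FGF receptors. Of these 11, 2 were called higher and 2 lower in siDNMT1, 2 and 2 in siDNMT3B, and 2 and 1 in siDNMT3L. With 1 array left out, 2 to 4 were called higher and 1 or 2 lower. The list medians were near 0, with a highest of 0.04 in siDNMT3B and siDNMT3L, where the median of all genes was -0.03, -0.02 and -0.02. ERRFI1, an inhibitor of the EGF receptor, was higher by 0.37, 0.55 and 0.63 in those 3 groups (SE 0.072). FLRT3, in the list as an FGF receptor partner rather than an inhibitor, differed by -0.74, -1.11 and -0.86 (SE 0.067). It was among the lower calls in each of the 3 groups. With DNMT3L siRNA added to 3A+3B, ERRFI1 rose by 0.54 and FLRT3 fell by 0.52 on the log2 scale. With DNMT3A siRNA added to siD1+3B both went the other way, by -0.31 and 0.30, calls that were lost without any 1 of the 4 arrays for ERRFI1 (-0.26 to -0.36) and without siD1+3B replicate 1 (0.23), siD1+3A+3B replicate 1 (0.34) or siD1+3A+3B replicate 2 (0.26) for FLRT3.

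Of 13 further ERK output genes, 3 were called higher and 3 lower in siDNMT1, 5 and 0 in siDNMT3B, and 3 and 1 in siDNMT3L. With 1 array left out, 0 to 2 were called lower in siDNMT1 and 2 to 4 higher in siDNMT3L. SPRY1 and DUSP5 are also in the list of feedback inhibitors, so the lower call of DUSP5 in siDNMT1 (-0.33) is counted in both lists. CCND1, the G1 cyclin D1, read 7.63 and 7.78 in siNTC-1 and 8.66 to 8.87 on the 6 arrays of those depletions, higher by 1.16, 0.98 and 0.97 (SE 0.064). ETV1, the third ETS factor of the PEA3 group, was higher by 0.48 in each (SE 0.050), and PHLDA1 by 0.42, 0.86 and 0.27 (SE 0.062), the last not called without siNTC-1 replicate 1 (0.17). Of 25 further immediate-early genes, 0 were called higher and 2 lower in siDNMT1 (DUSP1 by -0.52 ± 0.073, and SRF by -0.26 ± 0.066, not called without siDNMT1 replicate 1 at -0.20), 4 and 4 in siDNMT3B, and 5 and 1 in siDNMT3L. With 1 array left out, 0 or 1 were called higher in siDNMT1, 2 to 4 in siDNMT3B and 1 to 6 in siDNMT3L, and 1 or 2, 2 to 3 and 0 or 1 were called lower. Their list medians were -0.05, 0.08 and 0.07, beside which FOS and EGR1 were 0.39 to 0.82 above siNTC-1.

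The cascade list ran from adaptors through the kinases to the ELK factors and RPS6KA kinases that ERK acts on, and 19 of its genes had a row used here. In siDNMT1 6 of them were called higher and 1 lower, in siDNMT3B 5 and 3, and in siDNMT3L 3 and 2. The list medians were 0.01, -0.01 and -0.03. With 1 array left out, 4 to 5 were called higher and 1 or 2 lower in siDNMT1, 2 to 4 and 1 to 3 in siDNMT3B, and 3 and 0 to 2 in siDNMT3L. SHC3, an adaptor of receptor tyrosine kinases, was higher by 1.01, 1.99 and 0.91 (SE 0.086), and RPS6KA3, a kinase activated by ERK, by 0.45, 0.53 and 0.49 (SE 0.054). Of 32 FGF and EGF family ligands and receptors, 5 were called higher and 6 lower, 6 and 5, and 6 and 6. With 1 array left out, 3 to 5 were called higher and 3 to 5 lower in siDNMT1, 4 to 7 and 4 to 5 in siDNMT3B, and 4 to 6 and 5 to 6 in siDNMT3L. FGF19 was higher by 0.73, 1.29 and 0.63 (SE 0.079). FGF4, an FGF ligand made by pluripotent cells, read 7.93 and 7.95 in siNTC-1 and 8.32 to 8.68 in the 3 depletions. When DNMT3L siRNA was added to 3A+3B, 0 of these 32 were called higher and 4 lower, where 9.42% of all genes were called. With any 1 of the 4 arrays left out, 1 or 2 were called lower. FGF19 was among those lower, by -0.40 (not called without 3A+3B replicate 2, at -0.33). DUSP6 and EGR1 rose in the same comparison.

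Likeness to DUSP6 was ranked by Pearson correlation over the 13 group means, each minus the mean of its set, among 214 genes whose centred means had an SD of at least 0.3. The 5 most like it were PDZD4 (r = 0.968), UNC13A (0.921), TIMP4 (0.920), IGFBP7 (0.909) and, from among the members, IL17RD (0.894). The groups share control siRNA and array sets, so this is a description. PDZD4 read 6.72 and 7.01 in siNTC-1, 8.54 and 8.57 in siDNMT1, 8.51 and 8.42 in siDNMT3B, and 8.37 and 8.26 in siDNMT3L. With no centring on the sets, none of the 5 was among the 5 most like DUSP6. Of the other members, FOS reached 0.933, SPRY4 0.904, DUSP4 0.836, EGR1 0.792, SPRY2 0.753, ETV5 0.737, ETV4 0.395 and SPRED1 0.124, all below the SD limit and so not ranked. Within the set of siNTC-1 and then that of siNTC-2, r was 0.963 and 0.276 for ETV5 and 0.984 and 0.584 for DUSP4. It was 0.984 and 0.766 for SPRY4, 0.999 and 0.954 for FOS, 0.818 and 0.835 for EGR1, and 0.179 and 0.646 for ETV4. The set of siNTC-1 holds the depletions by which DUSP6 was chosen, and the centred SD of DUSP4 was 0.035.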

How the data were processed

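The deposited values were log2 expression values of transcript clusters on 26 Affymetrix Human Gene 1.0 ST arrays, with 2 arrays in each of 13 groups. Per the submitters' processing notes the tool was Partek, with no version or role. How background was removed and arrays were normalized is not given in the sources used here. Values of 3.04 to 14.87 were read as base 2. Precision is limited by the number of arrays.

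Of 33297 rows, 19460 had exactly 1 gene symbol, 1754 had several and 12083 had none in the platform annotation. Of the first, 19429 matched a gene of RefSeq on GRCh38.p14. The row with the highest mean stood for a gene (769 genes had several), for 18417 genes in all, and dim genes were kept.

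Group means of all 26 arrays were fitted with limma 3.58.1 in R 4.3.3 (lmFit and eBayes, 13 residual degrees of freedom, Benjamini-Hochberg over all genes, threshold 0.05). The procedure was tested on simulated data with known changes. Depletions were compared with the control of their own array set, and depletions of 1 set with each other. All 10 members are named, with the 5 genes most like DUSP6, and from each other list up to 4 genes with the smallest adjusted p. The members and lists were chosen with earlier results of these data known. Replicate numbers did not pair the arrays: over 78 pairs of groups, deviations of same-numbered arrays correlated at -0.26 to 0.19 (median -0.0019, 9 over 0.1). Alternatives covered the filter, normalization, variance prior, weights, replicate block, choice of rows, arrays fitted, control group and single arrays left out. The tests of differences between additions were chosen after the values were seen.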

Additional observations from a re-analysis of the deposited data

Results flagged for a closer look

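DUSP6 and EGR1 responded differently to DNMT3A siRNA on different backgrounds, by a test of the difference itself. The effect of DNMT3A siRNA added to 3B+3L minus its effect added to siD1+3B was 0.915 ± 0.2 (log2) for DUSP6, with an adjusted p of 0.00417 in limma. For EGR1 it was 0.509 ± 0.11, with an adjusted p of 0.00494 in limma. On siD1+3B both arrays of each gene lay below both arrays without DNMT3A siRNA; on 3B+3L both lay above. The calls held without any 1 of the 8 arrays (0.848 to 0.982 for DUSP6 and 0.424 to 0.594 for EGR1). The same difference was called lower for 9 of 10 integrated stress response genes, with a median of -2.09. The test was chosen after the values were seen, and it called 2 of 10 members, where 14.8% of all genes were called. The DNMT3B transcript rose by 0.45 when DNMT3A siRNA was added to 3B+3L, and by 0.19 on siD1+3B (not called). The part of these in the members' values was not tested.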

How the results depend on the processing

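Of 240 values of the 10 members in 24 comparisons, 104 were called, and 67 of these kept the call whichever single array of the groups compared was left out. Quantile normalization reversed no called value. Array weights could reverse none, because the 2 arrays of a group get the same weight and its mean stays the same. The flagged differences of DUSP6 and EGR1 thus stayed at 0.915 and 0.509, as in the main fit. A trended prior changes no difference and each member had 1 row, so neither setting could have reversed a sign. With 2 arrays in a group, 1 array can end a call, and the dimmest member, DUSP4, was left out with the dimmest 40% of genes.

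Leaving out 1 array gave 7 to 8 members called in siDNMT1, 6 to 7 in siDNMT3B, 7 in siDNMT3L, 3 in siDNMT3A, 2 to 4 in 3A+3B, 2 to 5 in 3A+3L, 2 to 3 in 3B+3L, 4 to 5 in 3A+3B+3L, 5 to 6 in siD1+3B, 2 to 6 in siD1+3A and 3 to 4 in siD1+3A+3B. It gave 5 to 8 for adding DNMT1 siRNA, 7 to 11 for DNMT3L siRNA, 4 to 6 for DNMT3A siRNA and 0 for DNMT3B siRNA, 7 to 8 for the pairs of single depletions, and 7 between the controls. Without the dimmest genes, adding DNMT3B siRNA gave 1 call. A trended and robust prior gave 5 calls in 3B+3L. Fitted on the arrays compared alone, which leaves fewer degrees of freedom, the counts were 5 in siDNMT1, 2 in siDNMT3A, 3 in 3A+3B, 3 in 3A+3L, 1 for adding DNMT1 siRNA, 2 for adding DNMT3A siRNA and 2 for the pairs. With no centring on the sets, 0 of the 5 genes most like DUSP6 remained, and that cause was not tested.

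With the replicate block, SPRY4 in siDNMT3A (-0.255) gained a call, so that 6 members were called there, and no other call changed. The numbers were not shown to pair the arrays.

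The control chosen mattered most, and the 2 control groups differed as described for the members. Against the mean of both controls, 8 members were called in siDNMT3A, 9 in 3B+3L and 8 in 3A+3B+3L. Against the control of the other set, 9 were called in 3B+3L, 8 in 3A+3B+3L and 7 in siD1+3A+3B. Against the mean of both, SPRY4 turned to -0.0545 in siDNMT1, -0.135 in siDNMT3L, 0.473 in siDNMT3A, 0.375 in 3A+3B, 0.604 in 3A+3L, 0.577 in siD1+3A and 0.557 in siD1+3A+3B. EGR1 turned to -0.552 in 3A+3L, -0.463 in 3B+3L, -0.278 in 3A+3B+3L, -0.105 in siD1+3B, -0.192 in siD1+3A and -0.428 in siD1+3A+3B. ETV5 turned to -0.0861 in siDNMT3L, IL17RD to 0.166 in siDNMT3A and 0.286 in 3A+3B, FOS to -0.225 in 3A+3B, and ETV4 to 0.169 in siD1+3B. Against the other set's control, SPRY4 turned to -0.783 in siDNMT1, -0.707 in siDNMT3B, -0.863 in siDNMT3L, 1.20 in siDNMT3A, 1.10 in 3A+3B, 1.33 in 3A+3L, 1.31 in siD1+3A and 1.29 in siD1+3A+3B. EGR1 turned to -1.15 in 3A+3L, -1.06 in 3B+3L, -0.878 in 3A+3B+3L, -0.704 in siD1+3B, -0.791 in siD1+3A and -1.03 in siD1+3A+3B. ETV5 turned to -0.334 in siDNMT1, -0.364 in siDNMT3B and -0.596 in siDNMT3L, and ETV4 to -0.106 in siDNMT1, 0.0144 in 3A+3B, 0.162 in 3A+3L, 0.238 in 3A+3B+3L, 0.346 in siD1+3B, 0.146 in siD1+3A and 0.113 in siD1+3A+3B. FOS turned to -0.455 in 3A+3B, -0.212 in 3A+3L, -0.18 in siD1+3A and -0.311 in siD1+3A+3B, IL17RD to 0.472 in siDNMT3A and 0.592 in 3A+3B, and SPRY2 to -0.057 in siDNMT1 and 0.235 in 3A+3B. DUSP6 reversed no called difference under either control.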
